A study of Rattus norvegicus with 45 samples.

Results

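Whether overexpression of wild-type histone H3.3 changed the effect of heroin on gene expression in the ventral tegmental area (VTA) was examined as a difference of differences. For each gene, heroin minus saline in empty-vector rats was subtracted from heroin minus saline in H3.3 WT rats, and this value is called the interaction here. Genes had to lie above the lowest deposited value in at least 7 of the 29 libraries compared, which left 21755 of the 32883 genes in the table. No gene passed the test: 0 of 21755 genes, or 0%, were DEx (differentially expressed: adjusted p under 0.05 and a log2 difference beyond 0.2) by limma, and the lowest adjusted p was 0.535. Among the lists of genes that could be named, the largest differences between the vectors lay in vascular smooth muscle, meningeal and blood genes, with median interactions from -0.78 to -1.0, and in cilium genes, with a median of 0.54. None of these differences of differences held after correction for all genes in that fit. The names came from a list ordered by H3.3 WT vs. empty vector in saline rats, a comparison that enters the interaction. The named genes are therefore a selected part, and the ranking of their lists is not independent evidence.

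The animals were male Sprague-Dawley rats that took heroin or saline by self-administration over 10 d. They were given an intra-VTA viral vector on day 11 and spent 30 d in enforced abstinence. The 4 groups were saline empty (7 rats), heroin empty (8 rats), saline H3.3 WT (7 rats) and heroin H3.3 WT (7 rats), with 1 polyA-selected RNA library for each rat. The vector was an adeno-associated virus by the study's methods and is described as lentiviral in the deposited design text; every vector, the empty control included, carried GFP, which guided the punches. Heroin rats and saline rats each received their vector only after self-administration had ended, so H3.3 WT was present in abstinence and not during drug taking. A punch holds all cell types of the tissue, infected or not, and in bulk RNA fewer cells of a type and less RNA per cell cannot be told apart.

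H3.3 is the histone H3 variant that is deposited outside DNA replication, and in neurons, which do not divide, it comes to make up much of the H3 pool. Its glutamine 5 can receive dopamine from the transglutaminase enzyme TGM2, a mark called H3Q5dop, and the wild-type vector keeps that glutamine. The vector therefore serves as the control for histone overexpression as such, and its comparison with the empty vector asks whether more H3.3 alone shifts the transcriptional state left by heroin.

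Reads on genes, recovered from the deposited values, ranged from 24308953 to 71104049 over the 29 libraries and were 42402128 at the median. By group the median was 55197003 in saline empty, 36011865 in heroin empty, 42802736 in saline H3.3 WT and 37049912 in heroin H3.3 WT rats, so the saline empty group was the deepest. A covariate for the read total left 0 DEx genes for the interaction. All values are deposited values on a log2-like scale whose floor, 5.73, stands for 0 reads; a difference is close to a log2 fold change for abundant genes and understates it for genes with few reads. Rat 27 of the saline H3.3 WT group stood apart from its group in meningeal genes, and results that rest on it are given with and without it. The files name genes by Ensembl identifier only. Symbols for 1995 of the tested genes came from the study's supplementary list, which is ordered by the saline H3.3 WT vs. saline empty comparison. That comparison enters the interaction, so the named genes are a selected part: 323 of 1995, or 16.2%, had an unadjusted interaction p under 0.05, against 785 of 19760, or 3.97%, of the genes without a name. The direction of a list of named genes is therefore not independent evidence. Of 27 genes listed for dopamine neurons and dopamine signaling only Adcy5 carried a name, and of 13 opioid genes none did, so the tissue label could not be checked against Th, Slc6a3 or other markers of the VTA.

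The 2 heroin effects differed in how many genes they called. In H3.3 WT rats 629 genes (2.89% of those tested) were DEx between heroin and saline, 70 higher (0.322%) and 559 lower (2.57%). In empty rats 40 genes (0.184%) were DEx, 16 higher (0.0735%) and 24 lower (0.11%). The counts at an unadjusted p under 0.05 ran the other way, with 3508 genes (16.1%) in H3.3 WT and 4060 genes (18.7%) in empty rats. The count in empty rats was also unsteady: at an adjusted p under 0.1 it was 764 against 934 in H3.3 WT rats, without saline empty rat 18 it was 1227, without heroin empty rat 2 it was 1043, and it was 0 in 7 of the 29 fits that each left out 1 rat. In H3.3 WT rats it ranged from 345 without saline H3.3 WT rat 4 to 1308 without saline H3.3 WT rat 27. Centring each library on its median moved the split to 263 higher and 411 lower in H3.3 WT rats and to 666 higher and 138 lower in empty rats. The gap between 629 and 40 is a difference between counts, and the interaction is the test of the genes behind it.

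By that test, 1108 of 21755 genes (5.09%) had an unadjusted p under 0.05, 622 with a positive (2.86%) and 486 with a negative interaction (2.23%). With voom, limma's model for counts, on the recovered reads the number of DEx genes was also 0, with 1040 genes at an unadjusted p under 0.05. The count depended on residual factors, which absorb variation left after the group means: with 1, 2 and 3 of them in the fit, 22, 116 and 360 genes were DEx for the interaction. Of the 1995 genes with a name, 8, 39 and 177 were DEx in those fits. The estimates are the same in those fits and only the errors shrink. The factors were taken from the residuals of the same values, so calls with them are not separate support. The interaction p-values were spread almost evenly, with 957 to 1261 genes in each bin of 0.05 and 1108 in the lowest bin. The lowest bin held 3508 genes for heroin in H3.3 WT rats and 4060 for heroin in empty rats.

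**Figure D1:**
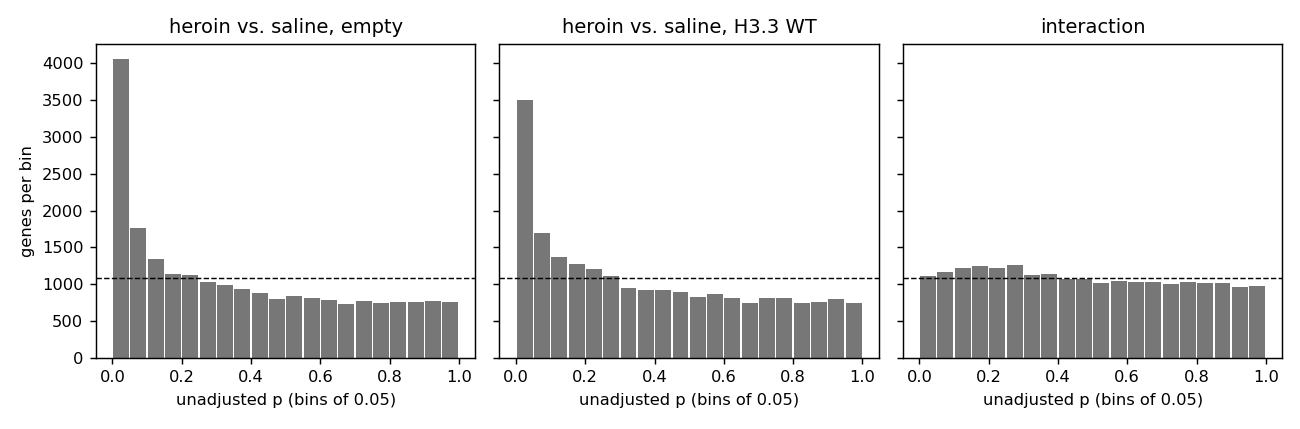
Unadjusted limma p-values in bins of 0.05 (x axis) against the number of genes per bin (y axis) for 21755 genes, shown for the heroin effect under the empty vector, the heroin effect under H3.3 WT and the interaction; the dashed line is the height of equal bins. The lowest bin holds 4060, 3508 and 1108 genes, and only the interaction stays near the line throughout.

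The interaction was measured with moderate precision. Its standard error had a median of 0.11, against 0.077 for heroin in H3.3 WT rats and 0.075 for heroin in empty rats, since it combines the errors of 4 groups. The 95% interval had a median half-width of 0.22, and 10% of genes had a half-width over 0.40. For 18401 genes (84.6%) the whole interval lay between -0.5 and 0.5, and for 21129 genes (97.1%) between -1 and 1. For the other 626 genes a difference between the vectors beyond 1 lay within the interval. These bounds are in deposited units, which understate fold changes for genes with few reads, so they do not limit fold changes there. For ENSRNOG00000021524, with 0 to 19 reads, the interval was -0.68 to -0.28, while voom gave an interaction of -3.35. The estimate itself was beyond 1 in either direction for 63 genes.

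Most genes called in one vector had a difference of the same sign in the other. Of the 559 genes lower after heroin in H3.3 WT rats, 539 (96.4%) were also below 0 in empty rats, where 52.9% of all genes were. An unadjusted p under 0.05 was found there for 308 of the 559, against 18.7% of all genes. Their median difference was -0.55 in H3.3 WT and -0.27 in empty rats. All 70 genes higher in H3.3 WT rats were also above 0 in empty rats, where 10250 of 21755 genes were, with medians of 0.30 and 0.21. Of the 24 genes lower after heroin in empty rats, 23 were below 0 in H3.3 WT rats (medians -0.55 in empty and -0.36 in H3.3 WT), where 49.3% of all genes were. All 16 higher ones were above 0 there (medians 0.35 and 0.28). In each case the median was larger under the vector in which the genes had been chosen. The comparisons share no library. Of the 611 genes DEx only in H3.3 WT rats, 142 (23.2%) had an unadjusted interaction p under 0.05, against 5.09% of all genes. None was DEx for the interaction. Those genes were chosen on libraries that the interaction uses, so this share is a description. DEx genes of both vectors numbered 18. These are 2.86% of the H3.3 WT list, where 0.184% of all genes were DEx in empty rats. They are 45% of the empty list, where 2.89% of all genes were DEx in H3.3 WT rats.

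**Figure D2:**
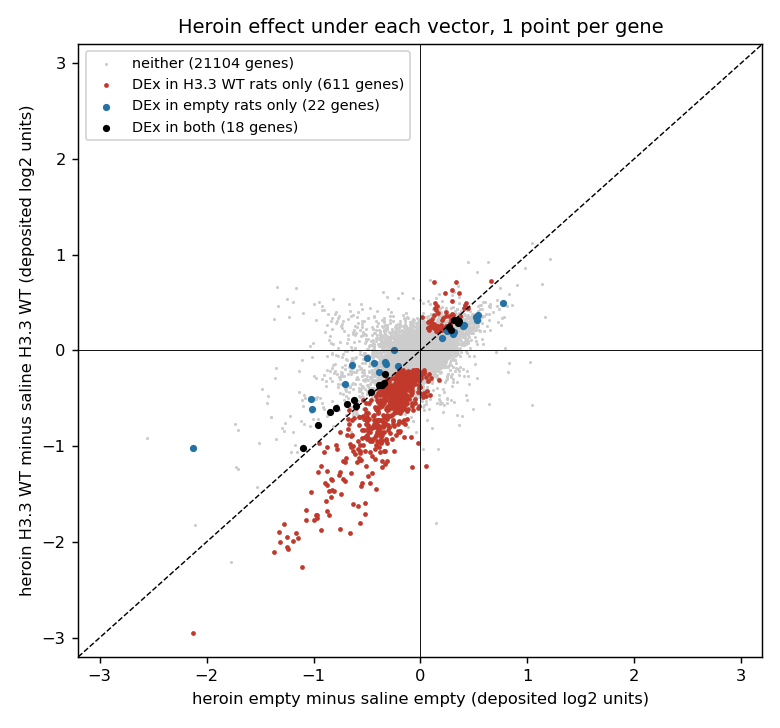
Heroin minus saline in empty rats (x axis) against heroin minus saline in H3.3 WT rats (y axis), both in deposited log2 units, with 1 point per gene for 21755 genes; the dashed line marks equal effects. The 611 genes DEx only in H3.3 WT rats lie mostly in the lower left quadrant below the line, the 22 DEx only in empty rats lie nearer to 0 on the y axis than on the x axis, and 18 are DEx in both.

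Of the 40 genes DEx in empty rats, 4 carried a name. Atp2b2, a calcium pump of the plasma membrane in neurons, lay between 13.91 and 14.47 (median 14.04) in saline empty rats and between 14.20 and 15.08 (median 14.61) in heroin empty rats. In H3.3 WT rats it ranged from 14.03 to 14.60 (median 14.42) after saline and from 14.41 to 15.12 (median 14.67) after heroin. Heroin values thus lay above most saline values under both vectors, with overlap in each. The difference was 0.53 in empty rats (adjusted p = 0.0257, limma) and 0.32 with H3.3 WT (adjusted p = 0.116). The interaction was -0.21 with a 95% interval from -0.53 to 0.10 (unadjusted p = 0.172), which does not separate the vectors. The other 3, named here after their values were seen, were Btg1, a gene that restrains cell division, Slc24a1, a sodium, potassium and calcium exchanger, and AABR07019383.1. Btg1 differed by -0.39 in empty rats and by -0.22 with H3.3 WT, and its interaction was 0.16. The differences of Slc24a1 were -1.02 and -0.51 with an interaction of 0.51. AABR07019383.1 had the largest gap of these, -2.13 and -1.02 with an interaction of 1.11. None of the 3 was DEx for the interaction. They were chosen for their difference in empty rats, which enters the interaction, so these gaps are a description.

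Vascular smooth muscle and pericytes, the contractile cells around vessels, were represented by 10 named genes of the 15 listed. Their median difference after heroin was -1.06 in H3.3 WT rats and -0.27 in empty rats, and 8 of the 10 fell in H3.3 WT rats while none passed the test in empty rats. Among all genes with a name, 132 of 1995 (6.62%) were DEx for heroin in H3.3 WT rats. The interaction was below 0 for all 10, where 58.5% of named genes and 50.2% of all genes were. Its median was -0.84, and 7 of the 10 had an unadjusted p under 0.05, against 16.2% of named genes. None of the 10 was DEx for the interaction, also with 1 and 2 residual factors. With 3 factors Acta2, Des, Myl9, Mylk and Tagln were, 5 of the 10, against 177 of 1995 named genes. The members stayed above 0 reads in every library. Without rat 27 the median interaction of the list was -0.96, and over the fits that left out 1 rat it lay between -0.97 and -0.73.

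Tagln, an actin-binding protein of smooth muscle, shows the arrangement of the groups. In saline empty rats it lay between 10.32 and 12.24 (median 11.12), and in heroin empty rats from 10.01 to 11.83 with a median of 10.55. In saline H3.3 WT rats it lay between 10.65 and 13.05 (median 12.24), and in heroin H3.3 WT rats from 9.56 to 11.20 with a median of 10.26. The saline H3.3 WT group was the high one, and all 4 groups overlapped. Tagln fell by 1.80 with H3.3 WT (adjusted p = 0.00299, limma), and the difference was -0.57 in empty rats (adjusted p = 0.378). Its interaction was -1.23 with a standard error of 0.49 and a 95% interval from -2.22 to -0.25 (unadjusted p = 0.0155, adjusted p = 0.902). With 1 rat left out it lay between -1.46, without rat 27, and -1.06, without saline H3.3 WT rat 44. Acta2, the smooth muscle actin, had an interaction of -1.18 (interval -2.15 to -0.22), Des, the intermediate filament desmin, one of -1.03 (interval -1.80 to -0.26), and Mylk, the kinase that starts contraction, one of -0.66 (interval -1.13 to -0.18). Mylk had the lowest p of its list, 0.00782 before adjustment. Pdgfrb, Notch3 and Mcam, which mark pericytes or vessel walls more broadly, had interactions of -0.30, -0.36 and -0.22 with intervals that reach past 0.

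**Figure D3:**
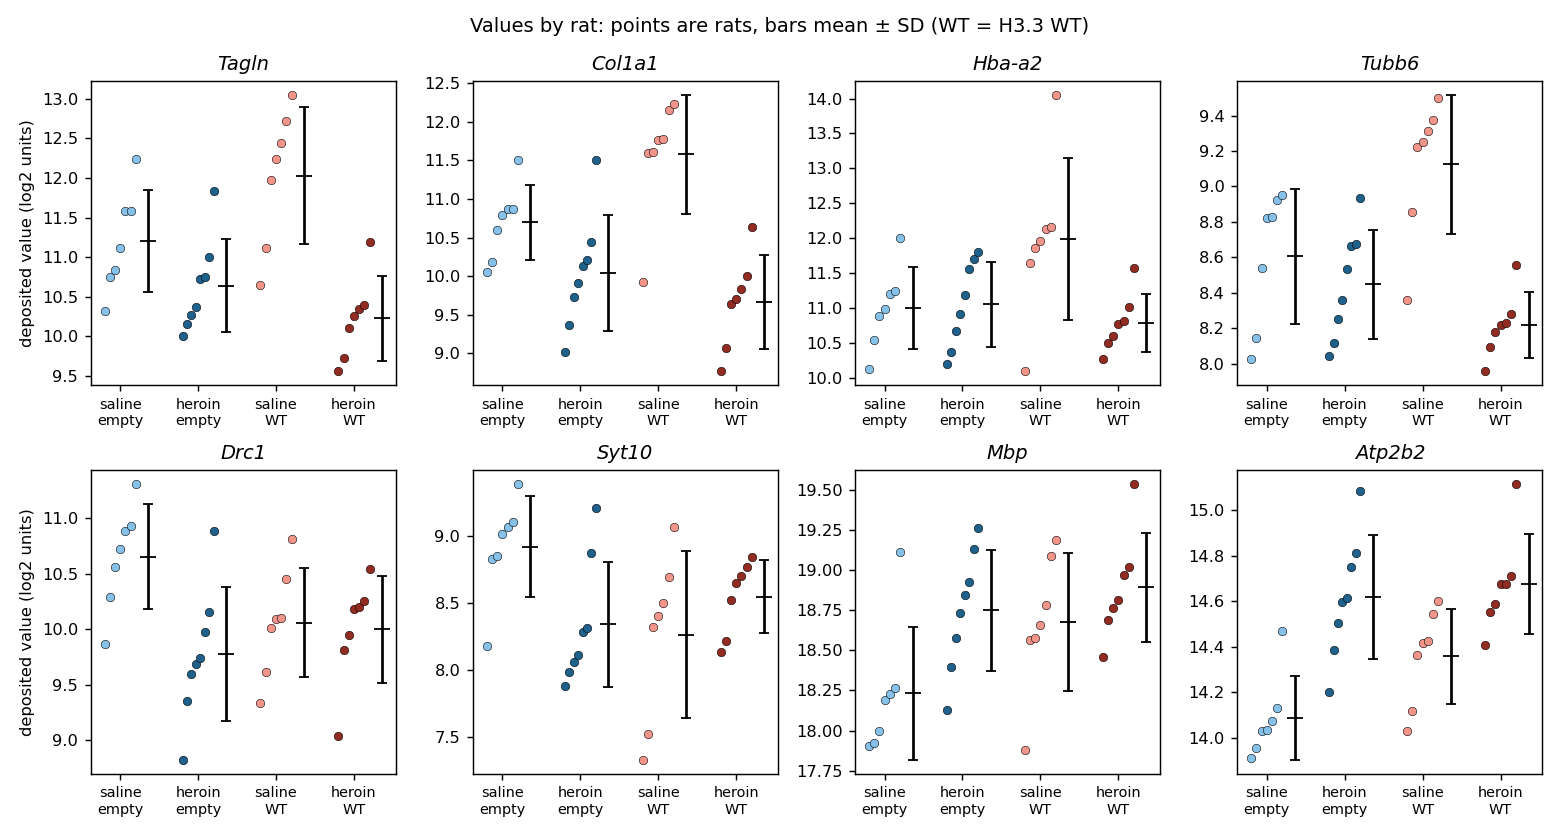
Deposited values (y axis, log2 units) of 8 genes in the 4 groups (x axis), with 1 point per rat and bars for mean ± SD. Tagln, Col1a1, Hba-a2 and Tubb6 are highest in saline H3.3 WT rats, Drc1 and Syt10 are highest in saline empty rats, Mbp and Atp2b2 are lowest in saline empty rats, and the points of the groups overlap in every panel.

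The same order of groups appeared in fibroblasts of the meninges and vessel walls, cells that lay down collagen at the brain surface. All 10 named genes of the 18 listed fell in H3.3 WT rats, where 6.62% of named genes were DEx, with a median of -1.24. In empty rats all 10 were below 0, with a median of -0.48, and none passed the test. Their interactions were all below 0, where 58.5% of named genes were, with a median of -0.78. An unadjusted p under 0.05 was found for 3 of the 10, against 16.2% of named genes, and none of the 10 was DEx. With 3 residual factors Col1a1, Mgp, Foxc1, Foxc2 and Igfbp2 were DEx for the interaction. These are 5 of the 10, against 177 of 1995 named genes, and with 1 or 2 factors none of the 10 was. In Col1a1, a chain of type I collagen, saline empty rats ranged from 10.05 to 11.50 (median 10.79), heroin empty rats from 9.02 to 11.51 (median 10.02), saline H3.3 WT rats from 9.92 to 12.22 (median 11.76) and heroin H3.3 WT rats from 8.77 to 10.64 (median 9.71). Of the saline H3.3 WT rats only rat 27, at 9.92, lay below 11.59. Col1a1 fell by 1.91 with H3.3 WT (adjusted p = 0.00304, limma) and its interaction was -1.25 (interval -2.31 to -0.19, unadjusted p = 0.0217). With 1 rat left out it lay between -1.53, without rat 27, and -1.04, without heroin empty rat 5. Mgp, an inhibitor of calcification, had an interaction of -0.80 (interval -1.40 to -0.20) and the lowest unadjusted p of the list, 0.00991. Without rat 27 it was -0.97, and without heroin H3.3 WT rat 9 it was -0.72.

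For 2 transport and secretion genes the heroin difference was beyond 1 under both vectors. Slc13a4 is on the list of meningeal genes, and Ptgds is not. For Slc13a4, a sulfate transporter, the difference was -2.07 with H3.3 WT and -1.24 with the empty vector, with an interaction of -0.83 and an interval from -2.0 to 0.33. For Ptgds, a prostaglandin D synthase that meningeal cells secrete, it was -1.99 and -1.19, with an interaction of -0.80 and an interval from -1.87 to 0.27. Both were chosen as examples after their values were seen. Neither interaction had an unadjusted p under 0.05 (0.156 and 0.141). Averaged over the 10 genes of the list, rat 27 had the value 9.26, against 10.26 to 11.00 in the other saline H3.3 WT rats and 8.63 to 9.73 in the heroin H3.3 WT rats. Without rat 27 the interactions of Slc13a4 and Ptgds were -1.17 and -1.11 and the median of the list was -0.99. Without heroin empty rat 5, the highest of its group at 10.08, the median of the list was -0.63 and Slc13a4 was at -0.67. Without heroin H3.3 WT rat 9 Ptgds was at -0.65.

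Genes of the extracellular matrix, the protein meshwork between cells, were named for 20 of 34 listed and share Col1a1 with the list before. Of these 12 fell in H3.3 WT rats, where 6.62% of named genes were DEx, and none passed in empty rats. The interaction was below 0 for 19, against 58.5% of named genes, with a median of -0.35. An unadjusted p under 0.05 was found for 6 of the 20, against 16.2% of named genes. None of the 20 was DEx for the interaction without residual factors or with 1 of them, 1 was with 2 factors and 6 were with 3, Serpinh1 among them. Of the 1995 named genes 39 were DEx with 2 factors and 177 with 3. Without rat 27, whose mean over the 20 genes was 10.26 against 10.76 to 11.15 in the other saline H3.3 WT rats, the median interaction was -0.47. Serpinh1, a chaperone for collagen, had the lowest p (0.0117 before adjustment): it fell by 0.50 with H3.3 WT (adjusted p = 0.00533, limma) and its interaction was -0.40 (interval -0.71 to -0.09). Fn1, fibronectin, fell by 0.62 with H3.3 WT (adjusted p = 0.0405, limma), the difference was -0.07 in empty rats, and its interaction was -0.55 (interval -1.05 to -0.05). It was -0.68 without rat 27 and -0.47 without heroin H3.3 WT rat 38. Thbs3, a thrombospondin, was the exception with an interaction of 0.27 (interval -0.20 to 0.74).

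Red blood cell genes had the lowest median of the lists, -1.0 over all 6 listed genes, and were close to 0 in empty rats, with a median of -0.0022. In H3.3 WT rats 3 of the 6 fell, where 6.62% of named genes were DEx, and the median of the 6 was -1.0. Hba-a2, an alpha globin chain of hemoglobin, ranged from 10.12 to 12.002 (median 10.99) in saline empty, from 10.20 to 11.80 (median 11.05) in heroin empty, from 10.09 to 14.05 (median 11.96) in saline H3.3 WT and from 10.26 to 11.56 (median 10.77) in heroin H3.3 WT rats. All 4 groups overlapped, and the widest spread was in saline H3.3 WT rats. Its interaction was -1.26 (interval -2.24 to -0.27, unadjusted p = 0.0141). Hba-a3, with the lowest p of the list (0.00816 before adjustment), had an interaction of -0.95. All 6 genes of the list mark the same cell type, so they are not separate observations. Globin genes of the same chain are also close copies of each other. Reads with several alignments were dropped before counting, which limits the counts of such copies. Without saline H3.3 WT rat 49, the highest of its group, the median interaction of the list was -0.71, and without rat 27, the lowest, it was -1.23.

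In these lists the gap between the vectors was larger among saline rats than among heroin rats. The median of saline H3.3 WT minus saline empty was 0.59 for smooth muscle, 0.68 for meningeal fibroblasts, 0.41 for matrix and 0.76 for blood genes. The median of heroin H3.3 WT minus heroin empty was -0.25, -0.03, 0.04 and -0.14 in the same order. Over all genes 0 were DEx between H3.3 WT and empty vector, in saline rats (3747 genes or 17.2% at an unadjusted p under 0.05, lowest adjusted p 0.185) and in heroin rats (1244 genes or 5.72%, lowest adjusted p 0.342); voom called 0 in both as well. The named genes came from a list ordered by the saline comparison, so a difference between these vectors in saline rats was built into them. Reads summed over the 10 smooth muscle genes, scaled to a common depth, ranged from 13678 to 34075 in saline H3.3 WT, from 10231 to 23004 in saline empty, from 10387 to 19342 in heroin empty and from 9635 to 15577 in heroin H3.3 WT rats. The 10 meningeal genes summed to 7013 to 26719, 8388 to 17395, 4617 to 14815 and 4259 to 10160 reads in the same order. The part that the share of meninges, vessels or blood in a punch had in these differences was not tested.

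**Figure D4:**
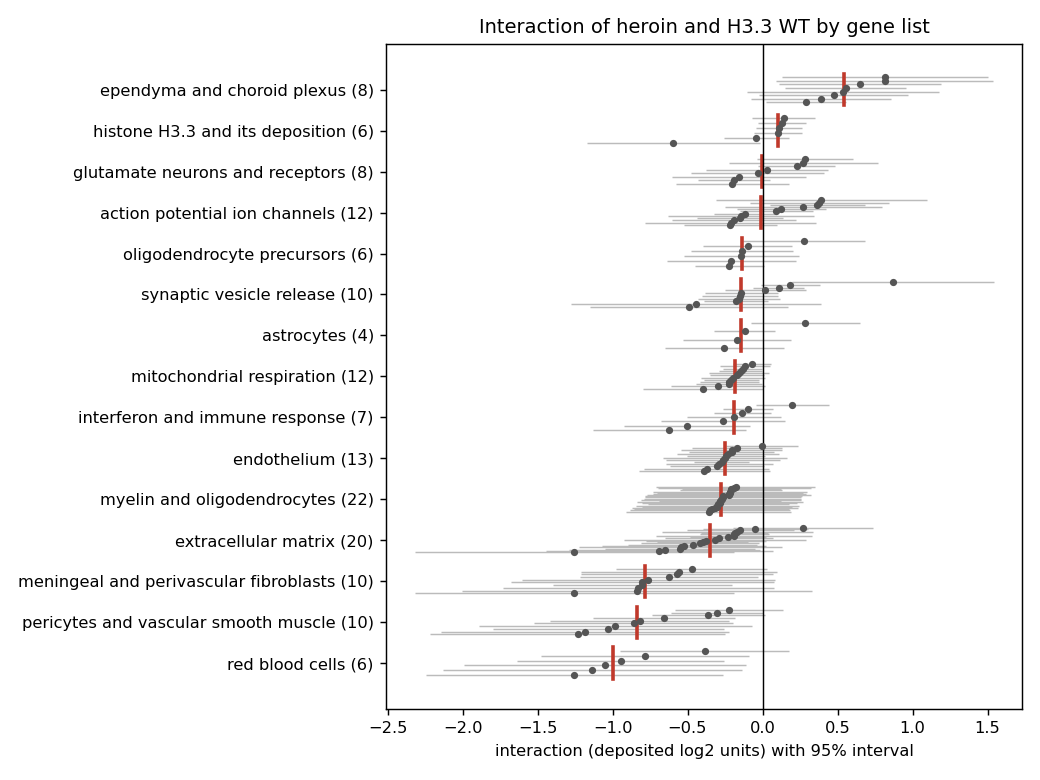
Interaction of heroin and H3.3 WT (x axis, deposited log2 units) for the named members of each gene list with at least 4 of them (y axis, number of members in brackets); points are genes, grey bars 95% intervals and red lines list medians. Blood, smooth muscle and meningeal genes lie furthest below 0 with medians of -1.0, -0.84 and -0.78, ependyma genes lie furthest above with 0.54, and neuronal lists straddle 0.

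Genes of motile cilia, which ependymal cells lining the ventricles carry, had interactions in the other direction. Of 15 genes listed for ependyma and choroid plexus 8 were named, all of them cilium genes. All 8 had an interaction above 0, with a median of 0.54, where 58.5% of named genes were below 0. An unadjusted p under 0.05 was found for 5 of the 8, against 16.2% of named genes, and none of the 8 was DEx. The median heroin difference of the 8 was -0.52 in empty rats against 0.05 with H3.3 WT, and none of them passed the test under either vector. The members stayed above 0 reads in every library. Summed over the 8 genes, scaled reads ranged from 3758 to 7316 in saline empty, 2362 to 6547 in heroin empty, 2762 to 6090 in saline H3.3 WT and 2453 to 5475 in heroin H3.3 WT rats, and the part of ventricle lining in the punch was not tested.

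Drc1, a part of the complex that regulates ciliary dynein, ranged from 9.87 to 11.31 (median 10.72) in saline empty, from 8.82 to 10.88 (median 9.71) in heroin empty, from 9.34 to 10.81 (median 10.09) in saline H3.3 WT and from 9.04 to 10.54 (median 10.18) in heroin H3.3 WT rats. The saline empty group was the high one, and the other 3 overlapped almost fully. The interaction of Drc1 was 0.81 (interval 0.09 to 1.54, unadjusted p = 0.0279), that of Ccdc151, needed to attach dynein arms, was 0.55 (interval 0.15 to 0.96, unadjusted p = 0.00797), and that of Tekt1, a tektin of the ciliary axoneme, was 0.65 (interval 0.11 to 1.19). Ccdc151 had the lowest p of its list. Its values ranged from 6.80 to 7.86 over heroin empty rats and from 6.94 to 7.70 over heroin H3.3 WT rats, so the heroin groups were not apart. With 1, 2 and 3 residual factors 3, 4 and 5 of the 8 were DEx for the interaction: Drc1, Rsph1 and Rsph9 with 1 factor, Tekt1 also with 2 and Ccdc151 also with 3. Among all 1995 named genes 8, 39 and 177 were DEx in the same fits.

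The promoter windows of these genes are shown because cilium genes share a regulator: factors of the RFX family bind the X-box, and GTTGCC is its half-site. In the 250 bases before the transcript start, from RefSeq on build GRCr8, 4 of the 6 named cilium genes with a window (Ccdc113, Cfap74, Drc1 and Tekt1) held GTTGCC on either strand, against 9.89% of all 33469 windows. The same search found it in 0 of 6 named smooth muscle genes with a window, and the CArG box of the serum response factor was in 0 of those 6 and in 1.5% of all windows. A match is a description of the letters, and no match says only that the letters are not in this window. Drc1 lies at chr6:31779257-31779506 on the minus strand, with the half-site as GGCAAC, read from the other strand, starting 19 bases before the start. Tekt1 lies at chr10:57479122-57479371 on the minus strand, with GTTGCC starting 39 bases before the start. Capitals mark the half-site.
Drc1: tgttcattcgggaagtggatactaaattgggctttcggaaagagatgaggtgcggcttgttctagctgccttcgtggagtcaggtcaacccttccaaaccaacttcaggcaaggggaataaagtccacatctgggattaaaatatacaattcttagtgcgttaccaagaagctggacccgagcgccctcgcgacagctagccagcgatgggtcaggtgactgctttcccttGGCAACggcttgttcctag
Tekt1: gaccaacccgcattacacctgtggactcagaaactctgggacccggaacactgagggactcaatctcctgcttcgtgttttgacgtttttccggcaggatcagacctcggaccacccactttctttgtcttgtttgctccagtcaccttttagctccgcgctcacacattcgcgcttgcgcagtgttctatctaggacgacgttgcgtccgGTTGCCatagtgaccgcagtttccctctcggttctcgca

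Genes of myelin, the lipid sheath made by oligodendrocytes, were the most completely named list, with 22 of 26. All 22 interactions were below 0, where 58.5% of named genes were, between -0.36 and -0.18 with a median of -0.27. None of the 22 had an unadjusted p under 0.05, against 16.2% of named genes. Of the 22, 5 were DEx for the interaction with 3 residual factors, against 177 of 1995 named genes. Olig1 was among the 5, and no member was DEx with 1 or 2 factors. The median heroin difference was 0.47 in empty rats against 0.20 with H3.3 WT, and no member passed the test under either vector. Mbp, a main protein of compact myelin, ranged from 17.91 to 19.11 (median 18.19) in saline empty, from 18.13 to 19.26 (median 18.79) in heroin empty, from 17.88 to 19.19 (median 18.66) in saline H3.3 WT and from 18.46 to 19.54 (median 18.82) in heroin H3.3 WT rats. Saline empty rats were the low group apart from rat 18, at 19.11, with the others between 17.91 and 18.26. The interaction of Mbp was -0.30 (interval -0.84 to 0.24), and that of Olig1, a transcription factor of the oligodendrocyte lineage, -0.28 (interval -0.69 to 0.12). Under quantile normalization Mbp had the same value in every library and an interaction of 0. Without saline empty rat 18 the median interaction of the list was -0.38.

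Other cell types of the tissue showed smaller values. The 13 named endothelial genes had a median interaction of -0.25, all below 0, where 58.5% of named genes were. Only 1 of the 13 had an unadjusted p under 0.05, against 16.2% of named genes. That gene was Icam2, an adhesion molecule of the vessel lining, at -0.27 with an interval from -0.46 to -0.09 (unadjusted p = 0.00467, adjusted p = 0.902, limma). Of 12 named genes of mitochondrial respiration all were below 0, where 58.5% of named genes were, with a median of -0.18. An unadjusted p under 0.05 was found for 5 of the 12, against 16.2% of named genes. Ndufb7, a subunit of complex I, led with -0.21 (interval -0.39 to -0.03). With 3 residual factors 2 of the 12 were DEx for the interaction, against 177 of 1995 named genes. Oligodendrocyte precursors (6 named genes) had a median of -0.14, with the proteoglycan gene Cspg4 at -0.22 (unadjusted p = 0.0606), and astrocytes (4 named genes) had a median of -0.15, with Itih3 at 0.29 (unadjusted p = 0.118). Of microglia 2 genes were named, with a median of -0.24, and Cx3cr1, the fractalkine receptor, was at -0.27 (interval -0.61 to 0.07). In the immune list of 7 named genes, Cxcl16, a chemokine, fell by 0.77 with H3.3 WT (adjusted p = 0.0116, limma), and its interaction was -0.62 (interval -1.13 to -0.11). With 3 residual factors 2 of the 7 immune genes were DEx for the interaction, against 177 of 1995 named genes.

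Pituitary markers, which are not known for expression in the VTA, were present in some punches. Cga, the alpha subunit of pituitary glycoprotein hormones, ranged from 5.73 to 12.59 in saline empty, from 5.73 to 10.40 in heroin empty, from 6.43 to 10.08 in saline H3.3 WT and from 5.73 to 6.80 in heroin H3.3 WT rats, from 0 to 9232 reads. Its interaction of -0.44 had an interval from -2.50 to 1.63, which leaves the direction unknown. Tbx19, a transcription factor of corticotropes and the lowest p among the 3 named pituitary genes, had an interaction of 0.65 (interval -0.01 to 1.30, unadjusted p = 0.0527) and was DEx with 3 residual factors.

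Of the neuronal lists, those of ion channels and glutamate neurons had medians near 0. The 12 named ion channel and pump genes had a median interaction of -0.01, 6 below and 6 above 0, and 8 named genes of glutamate neurons had a median of -0.0013. The 10 named genes of synaptic vesicle release had a median of -0.14. Syt10, a calcium sensor of secretion, stood out of that list: its median was 9.01 in saline empty, 8.20 in heroin empty, 8.40 in saline H3.3 WT and 8.64 in heroin H3.3 WT rats, with ranges from 8.18 to 9.39, 7.88 to 9.21, 7.33 to 9.07 and 8.13 to 8.84. Saline empty rats were again the high group, with overlap. The interaction of Syt10 was 0.87 (interval 0.19 to 1.54, unadjusted p = 0.0129, adjusted p = 0.902), and it was DEx with 1, 2 and 3 residual factors.

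Syt2 and Cplx1 had interactions below 0 with wide intervals. For Syt2, the calcium sensor of fast transmitter release, the heroin difference was 1.14 in empty rats (adjusted p = 0.0513, limma) and 0.69 with H3.3 WT (adjusted p = 0.225), with an interaction of -0.44 and an interval from -1.28 to 0.39. For Cplx1, a complexin that regulates vesicle fusion, it was 0.75 and 0.26, with an interaction of -0.49 and an interval from -1.15 to 0.17. Heroin H3.3 WT rat 11 was the highest of its group in Syt2, Cplx1 and Atp2b2. Syn1, a synapsin, had an interaction of -0.15 (interval -0.40 to 0.11), Hcn2, a pacemaker channel, of -0.15 (interval -0.63 to 0.34) and Scn3a, a sodium channel, of 0.13 (interval -0.17 to 0.42). Kcnh6, a potassium channel, had the lowest p among the channels, with an interaction of 0.37 (interval 0.05 to 0.68, unadjusted p = 0.0244). Grik2, a kainate receptor subunit, was at 0.23 (interval -0.03 to 0.48), and Npas1, the only named gene of GABA neurons, at -0.36 (interval -0.89 to 0.17). Adcy5, an adenylyl cyclase downstream of dopamine receptors, was measured tightly at -0.03 (interval -0.20 to 0.14).

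The machinery of the histone itself was named for 6 of 20 listed genes, without the H3.3 genes, so overexpression of the transgene could not be checked. Tgm2, the transglutaminase that attaches dopamine to H3, ranged from 9.18 to 10.11 (median 9.80) in saline empty, from 8.72 to 10.13 (median 9.66) in heroin empty, from 9.54 to 10.69 (median 10.36) in saline H3.3 WT and from 8.98 to 10.14 (median 9.67) in heroin H3.3 WT rats. It fell by 0.72 with H3.3 WT (adjusted p = 0.0405, limma), while the difference in empty rats was -0.12 (adjusted p = 0.795). Its interaction was -0.60 (interval -1.17 to -0.02, unadjusted p = 0.0431, adjusted p = 0.902), and the 4 groups overlapped. It was -0.72 without rat 27 and -0.50 without heroin H3.3 WT rat 38. The histone chaperone and remodeler genes Nasp, Dek, Chd1 and Chd2 had interactions of 0.14, 0.11, 0.10 and 0.13, with intervals that include 0, and Cabin1, of the HIRA chaperone complex, one of -0.04 (interval -0.26 to 0.18).

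Ranked by p over all genes, the leading interactions were mostly of genes without a name and with few reads. The lowest p belonged to ENSRNOG00000021524, with 0 to 19 reads per library. It ranged from 5.96 to 6.06 in saline empty, 6.05 to 6.28 in heroin empty, 6.03 to 6.46 in saline H3.3 WT and 5.73 to 6.16 in heroin H3.3 WT rats. Its interaction was -0.48 (unadjusted p = 2.46e-05, adjusted p = 0.535, limma), and with voom, which does not compress low counts, -3.35. ENSRNOG00000047957, with 22 to 112 reads, had an interaction of -0.39 (unadjusted p = 6.55e-05). In the positive direction, ENSRNOG00000060683 (0 to 14 reads) and ENSRNOG00000029128 (2 to 38 reads) had interactions of 0.50 and 0.37 with unadjusted p-values of 0.000241 and 0.000418. ENSRNOG00000021524 was DEx for the interaction with 1, 2 and 3 residual factors, ENSRNOG00000047957 and ENSRNOG00000060683 with 2 and 3, and ENSRNOG00000029128 with 3.

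Of the named genes among the 10 lowest p in each direction, Tubb6, a beta tubulin, had the largest interaction. It ranged from 8.03 to 8.95 (median 8.82) in saline empty, from 8.04 to 8.94 (median 8.45) in heroin empty, from 8.36 to 9.50 (median 9.25) in saline H3.3 WT and from 7.96 to 8.56 (median 8.22) in heroin H3.3 WT rats. Every heroin H3.3 WT rat lay below the mean of the saline H3.3 WT rats. Tubb6 fell by 0.91 with H3.3 WT (adjusted p = 0.00283, limma), and its interaction was -0.75 (interval -1.20 to -0.30, unadjusted p = 0.00155). With 1 rat left out it lay between -0.88, without rat 27, and -0.65, without saline empty rat 41. Eva1b, a membrane protein, fell by 0.47 with H3.3 WT (adjusted p = 0.0139, limma), against a difference of 0.05 in empty rats, and its interaction was -0.52 (interval -0.85 to -0.20). LOC684270 had an interaction of -0.37 (interval -0.59 to -0.14). On the positive side, Aptx, an enzyme that repairs DNA strand breaks, had an interaction of 0.25 (interval 0.10 to 0.40, unadjusted p = 0.00141) and Cnot2, a subunit of the mRNA deadenylation complex CCR4-NOT, one of 0.20 (interval 0.08 to 0.32, unadjusted p = 0.00144). Both had narrow groups, with SDs from 0.059 to 0.11, and neither was DEx between heroin and saline under either vector. Tubb6, Eva1b and Cnot2 were DEx for the interaction with 2 and 3 residual factors and Aptx with 3, and LOC684270 was not with any of these.

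The genes with the lowest p for heroin in H3.3 WT rats can be set beside the interaction. Eif4ebp1, a repressor of cap-dependent translation, ranged from 7.92 to 8.63 in saline H3.3 WT and from 7.69 to 7.97 in heroin H3.3 WT rats; it fell by 0.55 there (adjusted p = 0.00283, limma), the difference in empty rats was -0.20 (adjusted p = 0.224), and the interaction was -0.35 (interval -0.61 to -0.09). The unnamed ENSRNOG00000014672 and ENSRNOG00000019858 fell by 0.97 and 0.39 in H3.3 WT rats, with interactions of -0.65 and -0.22. ENSRNOG00000009577 rose by 0.60 with H3.3 WT (adjusted p = 0.00358, limma) and had a difference of 0.36 in empty rats, so that its interaction was 0.24 (interval -0.11 to 0.59). ENSRNOG00000029784 rose by 0.28, with a difference of 0.13 in empty rats and an interaction of 0.15 (interval -0.02 to 0.31). In each of these genes the heroin difference had the same direction under both vectors and was larger with H3.3 WT, where the genes had been chosen. Ier3, an immediate early gene, fell by 0.48 with H3.3 WT (adjusted p = 0.0129, limma) and had an interaction of -0.27 (interval -0.59 to 0.06). The receptor genes Il17ra and Cntfr, for interleukin 17 and ciliary neurotrophic factor, had interactions of -0.13 and -0.26 with intervals that include 0. With 3 residual factors Eif4ebp1 and Cntfr were DEx for the interaction, and ENSRNOG00000014672 was with 2 and 3.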

How the data were processed

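VTA punches of 45 rats gave 1 library each. The authors aligned reads with HISAT2 2.1.0 to Rnor_6.0, dropped reads with several alignments, counted with featureCounts 2.0.1 and deposited DESeq2 variance-stabilized counts, which are log2-like values. Their RUVr adjustment is not in these values. Inverting the transformation gave whole numbers (within 0.1) for 100% of values, so reads per library were recovered; their number limits precision for genes with few reads.

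Deposited values of 44 libraries in 6 groups were fitted together with limma 3.58.1 (R 4.3.3) with an intensity trend, and p-values were adjusted by Benjamini-Hochberg over 21755 genes. The labels of 1 library conflict and it was left out. The labels name no batch; heroin empty rats carry numbers 2 to 21 only, so rat number and group are partly confounded. No libraries were identical. The interaction and both heroin effects were contrasts of this fit; the alternatives are given in the closing section. Named genes were the 10 lowest interaction p in each direction (at most 2 without a symbol), the 5 lowest for heroin in H3.3 WT rats, the lowest in each of 21 hand-written lists, genes the study names and fixed markers; Tagln, Acta2, Des, Slc13a4, Ptgds, Drc1, Hba-a2, Cga, other list members and the 3 further DEx genes of empty rats were added after their values were seen. Members and lists were chosen with earlier results of these data known. The scripts were tested on simulated data. Symbols come from the study's supplementary list, whose own fold changes and p-values were not used. Results for some of the named genes are not reported here.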

Additional observations from a re-analysis of the deposited data

Results flagged for a closer look

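In the 54 named genes, 216 groups of values (1 gene in 1 group of 7 or 8 rats) were searched for a rat far from the rest of its group, which chance alone gives in about 1 in 20 groups, or 10.8 here. The search found 20 values in 16 genes. Several genes share a rat, and they are not independent.

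Saline empty rat 18 was high in Atp2b2 (14.47, the others 13.91 to 14.13), Cplx1 (14.95), Mbp (19.11) and Ndufb7 (11.68) and low in Scn3a (11.51). Of the same group, rat 13 was high in Serpinh1 (12.15) and rat 42 in ENSRNOG00000014672 (7.05). Saline H3.3 WT rat 27 was low in Col1a1 (9.92, the others 11.59 to 12.22) and Slc13a4 (9.12, the others 10.82 to 11.71). Heroin empty rats 2, 5 and 21 were high in ENSRNOG00000060683 (6.18), Acta2 (11.31) and Cga (10.40). Heroin H3.3 WT rat 11 was high in Atp2b2 (15.12), Cplx1 (15.59) and Syt2 (13.71) and low in Scn3a (11.13) and in ENSRNOG00000060683 (5.73, which is 0 reads). In that group rat 1 was high in Mylk (10.89), rat 20 in Cx3cr1 (10.71), and rat 9 was low in Icam2 (7.98).

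Rats 18 and 11 thus shared the direction of Atp2b2, Cplx1 and Scn3a in a saline and in a heroin group. Without saline empty rat 18 the heroin effect in empty rats had 1227 DEx genes against 40 with it. The part of the dissection or of any other source was not tested.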

How the results depend on the processing

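The count of 0 DEx genes for the interaction held without the gene filter, for genes above the median level, under median centring, quantile normalization, the 4 groups alone, array weights, rat number or read total as covariate, voom, no fold threshold, an adjusted p under 0.1, and in all 29 fits that left out 1 rat (0 to 0). Without the filter 1 gene had an adjusted p of 0.00355 with a difference under 0.2. The count was 22 with 1 residual factor (21 higher), 116 with 2 (92 higher) and 360 with 3 (182 higher); these factors leave the estimates as they are and shrink their errors, and the number of factors the study used is not given in the sources used here. The 22 genes were all among the 116, and the 116 among the 360. As these fits share their estimates, the nesting is not separate support.

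For heroin in H3.3 WT rats (629) the count was 355 for genes above the median level, fewer genes being tested, 1066, 1574 and 1872 with 1, 2 and 3 factors, and 345 to 1308 with 1 rat left out. For heroin in empty rats (40) it was 16 without the filter, 235 above the median level, 804 under median centring, 19 under quantile normalization, 1657, 2024 and 2339 with 1, 2 and 3 factors, 70 in the 4 groups alone, 2104 with array weights, 15 with rat number and 0 with read total as covariate (3681 genes at an unadjusted p under 0.05), 8 with voom, 764 at an adjusted p under 0.1, and 0 to 1227 with 1 rat left out. For H3.3 WT vs. empty in heroin rats (0) it was 2 and 198 with 2 and 3 factors, 1 with rat number as covariate, and 0 to 0 with 1 rat left out. For H3.3 WT vs. empty in saline rats (0) it was 330, 1513 and 1943 with 1, 2 and 3 factors, and 0 to 109 with 1 rat left out, the 109 without rat 27. The causes were not tested.

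Of 1566 interactions of named genes with 1 rat left out, 4 changed sign, in Adcy5 (-0.071 to 0.0056) and Cga (-1.08 to 0.061); of 633 under the other alternatives, Adcy5 changed sign with array weights (0.0077), and 35 passed the test, with residual factors. No scaling moved the median interaction of all genes by 0.1. No paired analysis was possible because the groups compared share at most 1 rat number. Depth limits genes with few reads, and the interval of the interaction reached beyond 1 in deposited units for 2.88% of genes. For genes with few reads these units understate fold changes.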
